A study of Canis lupus familiaris with 10 samples.

Results

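The 562 regions described here were those of the canine diffuse large B-cell lymphoma cell line CLBL-1 that carried an accessible-chromatin peak in every library treated with C220 and in neither control library. They were found by merging touching or overlapping peaks of the 5 CLBL-1 libraries into 32575 regions, so that they made up 1.73% of all regions. The opposite pattern, a peak in both control libraries and in no C220 library, was found at 162 regions (0.497%). With each list held to its 20000 strongest peaks there were 265 gained and 284 lost regions. CLBL-1 had more C220 than control libraries, so the gained and lost patterns ask for unlike numbers of peaks. Their counts are therefore not like for like. The regions were chosen by the peak calls of these 5 libraries, and the contrast between C220 and control in CLBL-1 is therefore given below as a description without a test. The study's own comparison of accessibility used cutoffs on fold change and false discovery rate, and reported only minimal changes in CLBL-1. That measure differs from the presence or absence of a peak used here.

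CLBL-1 was collected on day 2 of culture with 100 nM C220 (libraries C4, C5 and C6) or as a control (C2 and C3). The canine B-cell lymphoma cell line 17-71 was collected on day 4 with 100 nM C220 (B4 and B6) or as a control (B1, B2 and B3), and these 5 libraries took no part in choosing the regions. C220 is an inhibitor of protein arginine methyltransferase 5 (PRMT5), named PR220 in the sample labels, which do not say whether the controls received a vehicle. The comparison asks where chromatin opens or closes when PRMT5 is inhibited. Each line is a single cell line. The study describes the libraries as biological replicates, and the labels do not name the cultures they came from.

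PRMT5 places symmetric dimethyl marks on arginine residues of histones and of many other proteins, among them the Sm proteins of the splicing machinery. Its histone marks, such as symmetric dimethylation of arginine 3 of histone H4, are known mainly as repressive marks at gene promoters, and in B-cell lymphoma the enzyme is known as a driver of growth. ATAC-seq cuts and tags DNA that is free of nucleosomes with a transposase, and stretches rich in tagged fragments are called as peaks of open chromatin. Promoters and enhancers are the usual places of such peaks.

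The gained regions were shorter than the regions called in all 5 libraries. Their median width was 906 bp (range 351 to 3835), against 722.5 bp for the lost regions, 879 bp for the 2153 other regions called in exactly 3 of the 5 libraries, and 1347 bp for the 18371 regions called in all 5. The nearest other gained region lay a median of 870527 bp away, and 2 of the 562 lay within 10000 bp of another. Spacing within a group was not measured for other groups of regions, so nothing is read from these 2 values. The nearest other region with a control peak was a median of 12559 bp away and lay within 10000 bp of 247 gained regions (44.0%). For all merged regions these values were 13607 bp and 40.3%, and for the other regions called in exactly 3 libraries 12954 bp and 41.1%. The distance to the nearest region called in all 5 libraries, a median of 19523 bp, was close to the 19958 bp of all merged regions. In their spacing from control peaks and from constantly open chromatin the gained regions were thus close to the merged regions at large.

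The strongest gained region, ranked by the smallest −log10 p of its C220 peaks, was chr24:29599875-29601410 in the dog genome build CanFam3.1. Its fold enrichment, the ratio of fragments in the peak to the local background, was 5.38 in C4, 4.34 in C5 and 7.38 in C6. No control peak was called within 47740 bp. In 17-71 it carried a peak in the control library B1 only, with a fold enrichment of 6.89. Second was chr17:15437802-15439528, with fold enrichments of 5.00, 4.12 and 4.80 in C4, C5 and C6, no control peak within 37208 bp and, in 17-71, again a peak in B1 only (3.81). The region chr17:50377388-50377970, seventh in the order, was the most isolated of the strongest 10. Its fold enrichments were 6.26, 7.73 and 5.46, the nearest control peak lay 175245 bp away, and no 17-71 library had a peak there. These 3 were remote from control peaks, but 6 of the strongest 10 had one within 10000 bp, the nearest at 2673 bp from chr9:497582-498470.

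Among the other strong regions, chr9:497582-498470 had the largest −log10 p of any gained region in a single library, 46.3 in C4, and its fold enrichment was 6.72 in C4, 5.20 in C5 and 4.41 in C6. In 17-71 it was called in the controls B1 and B3. The region chr15:55799014-55799490 had fold enrichments of 5.26, 5.41 and 5.12 in the C220 libraries of CLBL-1 and was open in every 17-71 library, at 6.43, 5.44 and 4.71 in the controls and 5.60 and 4.14 with C220. The same held for chrX:41844967-41845571, with 5.95, 7.07 and 5.74 in CLBL-1 and 5.53, 5.11, 5.28, 3.93 and 3.63 in B1, B2, B3, B4 and B6. At both places the CLBL-1 controls were the only libraries of the series without a call. At chr1:48109873-48110485 the lines differed in the other direction as well: the CLBL-1 C220 libraries had 6.03, 4.32 and 6.12, while in 17-71 the 3 controls had 6.0, 3.91 and 3.85 and neither C220 library had a peak.

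**Figure D1:**
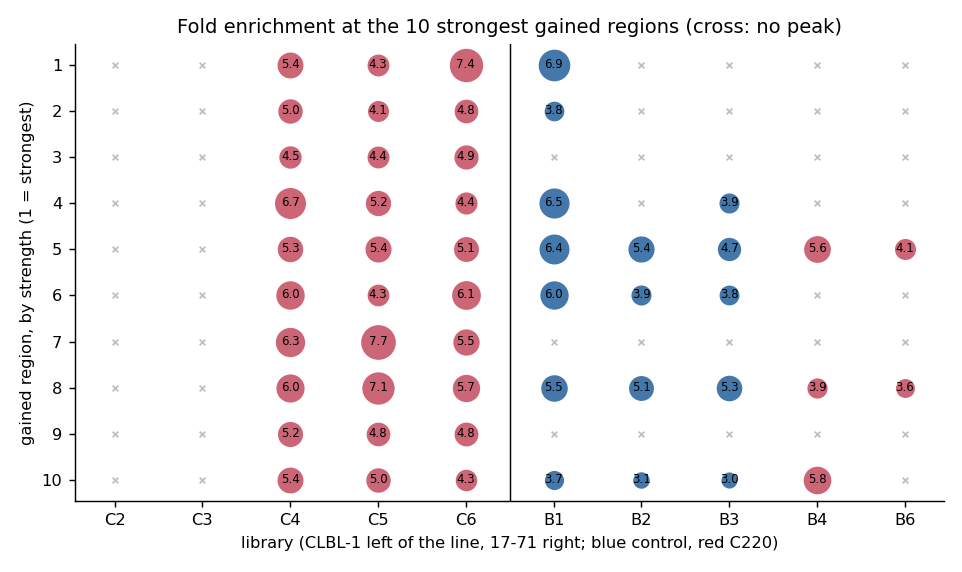
Fold enrichment at the 10 strongest gained regions (vertical axis, 1 is the strongest) in each of the 10 libraries (horizontal axis), with the point size following the printed value, control libraries in blue, C220 libraries in red and a cross where no peak was called. The calls in C4, C5 and C6 and the crosses in C2 and C3 follow from the rule, and in 17-71 the 10 regions range from no peak in any library to a peak in all 5.

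The strongest 10 were completed by chr38:21110491-21111066 and chr25:11709804-11710273, each without a peak in any 17-71 library, and by chr4:52447036-52448875, with a peak in B1, B2, B3 and B4. Over the 10, fold enrichment in the C220 libraries ranged from 4.12 to 7.73. In 17-71, 3 of the 10 had no peak and 2 had a peak in all 5 libraries, so the strength of a gained region in CLBL-1 did not fix its state in the other line.

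Most gained regions were far weaker than these. Peaks were deposited down to a −log10 p of about 5, and the median −log10 p of the gained regions was 6.64 in C4, 6.55 in C5 and 5.90 in C6. In the 18371 regions open in all 5 libraries, the medians in the same libraries were 17.7, 17.4 and 12.9. The smallest of a gained region's 3 values had a median of 5.54 and lay below 6 at 412 regions (73.3%), while it reached 7 at 52 regions (9.25%) and 10 at 8 regions (1.42%). The other regions called in exactly 3 libraries were as weak where a C220 library called them, with medians of 6.46 in C4, 6.42 in C5 and 5.84 in C6. Weak calls were therefore shared by partly called regions and not particular to the gained ones, of which a small group stood well above the calling threshold.

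The ranked lists give the same values in another form. The weakest 25% of each list held 347 of the 562 regions (61.7%) in C4, 339 (60.3%) in C5 and 425 (75.6%) in C6. The strongest 25% held 2, 2 and 1. Of the other regions called in exactly 3 libraries, the weakest 25% held 65.4% of those called in C4, 64.4% in C5 and 80.5% in C6. All 3 peaks were among the 20000 strongest of their libraries at 77 regions (13.7%). C6 gave the weakest call at 288 regions (51.2%), against 139 for C4 and 135 for C5.

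**Figure D2:**
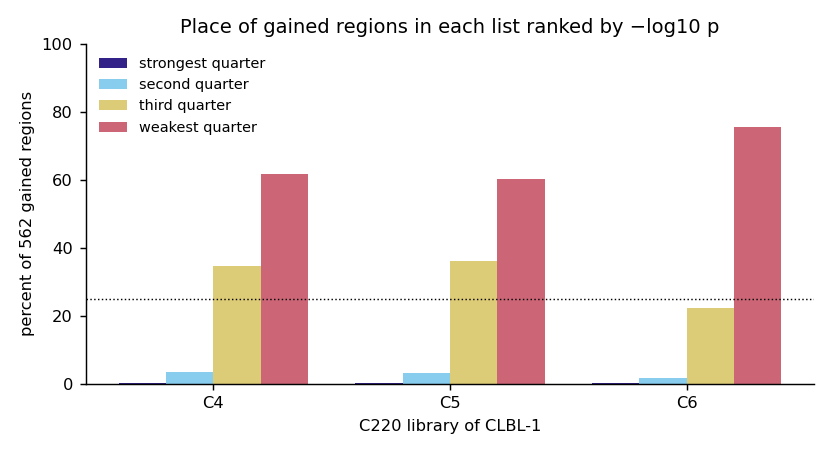
Percent of the 562 gained regions (vertical axis) that fell into each of 4 equal parts (quartiles) of a library's peak list ranked by −log10 p, for C4, C5 and C6 (horizontal axis), with a dotted line at the 25% that an even spread would give. The weakest 25% of the peaks held between 60.3% and 75.6% of the regions and the strongest 25% at most 2 regions.

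C4 and C5 also had longer lists and stronger calls at shared sites than the other CLBL-1 libraries, and C6 was close to the controls in both. The lists held 27026 peaks in C4, 27247 in C5, 23082 in C6, 23822 in C2 and 23318 in C3. In the regions called in all 5 libraries, the median −log10 p was 13.0 in C2 and 13.6 in C3, below C4 and C5 and near C6, whereas median fold enrichment there differed little between the 5, from 4.31 to 4.69. The files hold no read numbers, so the depth of the libraries is unknown, and the part of these differences in the list of gained regions was not tested.

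A peak just past the threshold needed a different fold enrichment in each library. Among peaks with a −log10 p between 5 and 6, the median fold enrichment was 3.59 in C2, 3.32 in C3, 3.28 in C4, 3.11 in C5 and 3.60 in C6. The gained regions had median fold enrichments of 3.43 in C4, 3.27 in C5 and 3.75 in C6. They exceeded 3.59, the higher of the control levels, at 212 regions (37.7%) in C4, 150 (26.7%) in C5 and 369 (65.7%) in C6. In all 3 libraries 90 regions (16.0%) exceeded it, and in none of them 155 (27.6%). Against 3.32, the level of C3, 219 regions (39%) exceeded it in all 3 libraries and 70 (12.5%) in none. The share of gained regions at or below the level of a control's weakest calls thus depended on which control was taken.

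**Figure D3:**
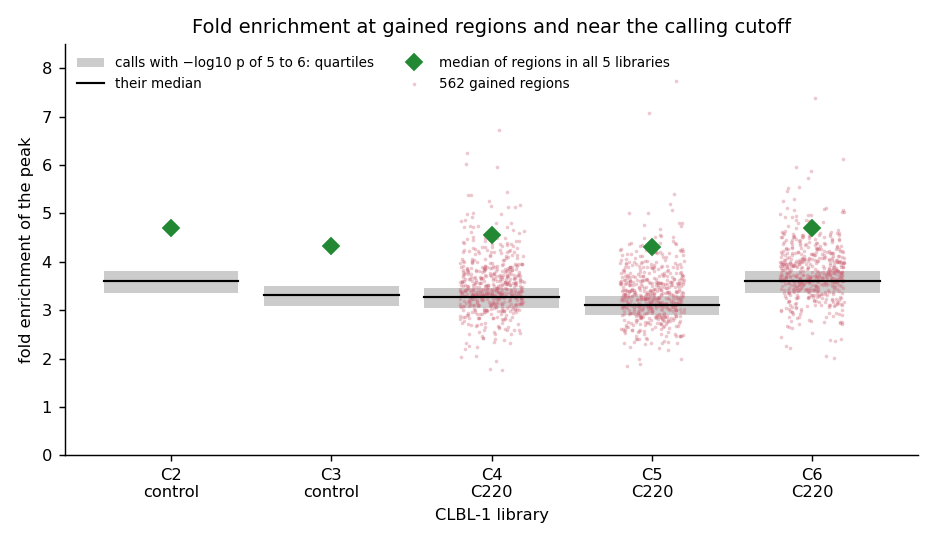
Fold enrichment (vertical axis) of the 562 gained regions in C4, C5 and C6 (red points), with the quartiles (grey) and median (black line) of all peaks with a −log10 p of 5 to 6 in each CLBL-1 library and the median of regions called in all 5 libraries (green diamonds). The points gather around the grey bands, which lie highest in C2 and C6 (medians 3.59 and 3.60), and a minority reach the diamonds.

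Within the list the C220 libraries ranked the regions alike in part. Across the 562 regions, fold enrichment correlated between C4 and C5 with Pearson's r of 0.69 and Spearman's rho of 0.62, between C4 and C6 with 0.67 and 0.60, and between C5 and C6 with 0.64 and 0.64. These values are across regions, which are not independent replicates, and all peaks had passed the same threshold in each library. No such correlation was taken for other regions, so the values are not read as particular to the gained ones.

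The edge of the list was narrow. The last regions inside it were chr24:32164358-32165366 (−log10 p of 5.00 in C6), chr9:48195473-48196368 (5.00 in C6) and chr34:26144093-26145005 (5.00 in C5). The first outside it, each called in all 3 C220 libraries and in a single control, were chr8:42574817-42575786 (5.00 in C3), chr17:15476737-15477572 (5.00 in C2) and chr10:24525767-24526672 (5.01 in C3). In all, 1615 regions had a peak in all 3 C220 libraries and in 1 control, 895 of them in C2 and 720 in C3, with a median control −log10 p of 6.42 that lay below 6 at 587 regions (36.3%). More regions thus missed the list by a single control peak than entered it.

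The libraries of 17-71 gave the independent view of these places. Among the controls, B1 had a peak at 52.3% of the gained regions, B2 at 33.1% and B3 at 31.9%, and among the C220 libraries B4 had one at 15.7% and B6 at 22.4%. Both C220 libraries were below all 3 controls, with means of 19.0% ± 4.78 (SD, n = 2) and 39.1% ± 11.5 (SD, n = 3). The difference of −20.0 percentage points gave p = 0.1 in a two-sided exact permutation test, the smallest p that 3 against 2 libraries allow, so no threshold of 0.05 could be passed. The direction was the opposite of that in CLBL-1, where C220 libraries had the peaks by choice.

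The lower share in the C220 libraries of 17-71 went with shorter lists. B1, B2 and B3 held 44378, 33358 and 30943 peaks, and B4 and B6 held 22076 and 27646. At all 32575 CLBL-1 regions a 17-71 peak was present at 64.4%, 52.6%, 50.9%, 38.6% and 45.3% in B1, B2, B3, B4 and B6. Divided by these shares, the gained regions had 0.812, 0.629 and 0.625 in the controls and 0.406 and 0.495 with C220, and the mean log2 difference between C220 and control was −0.61 (exact permutation p = 0.1, the smallest possible). The other regions called in exactly 3 CLBL-1 libraries also had a smaller share with C220, by −0.32 on the same scale (exact permutation p = 0.2), as did the lost regions, by −0.29 (exact permutation p = 0.1). The regions called in all 5 CLBL-1 libraries were higher by 0.14 on this scale (exact permutation p = 0.1). Regions with uneven calls in CLBL-1, gained and lost alike, thus had a smaller relative share in the C220 libraries of 17-71. Those libraries also had the shorter lists, so list length and treatment cannot be told apart in these shares.

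With each 17-71 list held to its 20000 strongest peaks, an alternative added after the data were seen, the shares at gained regions became 17.4%, 14.8% and 16.0% in the controls and 12.8% and 14.4% with C220. The difference shrank to −2.46 points (exact permutation p = 0.2), and both C220 values remained below all controls. Relative to the share of all CLBL-1 regions in the same shortened lists, the log2 difference was −0.18 (exact permutation p = 0.2) in place of −0.61. The difference was thus smaller with lists of equal length on both scales.

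**Figure D4:**
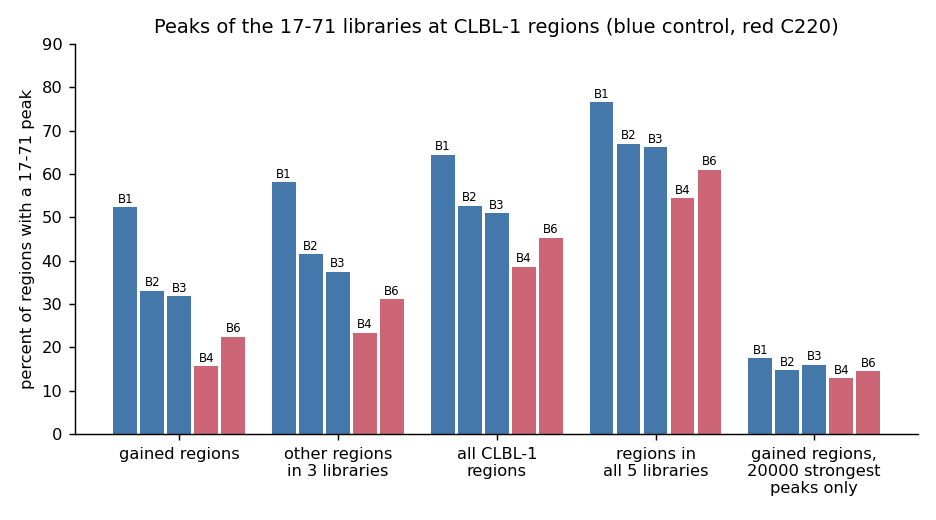
Percent of CLBL-1 regions with a peak (vertical axis) in each 17-71 library, control in blue and C220 in red, for the gained regions, the other regions called in 3 libraries, all merged regions and the regions called in all 5 (horizontal axis), and at the right for the gained regions with each list held to 20000 peaks. B4 and B6 are lowest in every group, and at the gained regions the control and C220 means of 39.1% and 19.0% give way to values between 12.8% and 17.4% when lists are of equal length.

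Region by region, 249 of the 562 (44.3%) had no peak in any 17-71 library and 59 (10.5%) had a peak in all 5. These shares were 32.9% and 33.8% of all CLBL-1 regions, and 38.3% and 16.6% of the other regions called in exactly 3 libraries. None had the gained pattern in 17-71, a peak in B4 and B6 and in no control, and a count of 0 in 562 allows a share of up to 0.534% when the limit is set at 3 counts, or 0.679% by the upper bound of the 95% Wilson interval. The background share of that pattern, 20 of all 32575 CLBL-1 regions (0.0614%) and 0.215% of the 48847 merged regions of 17-71 itself, was so low that its absence among the gained regions is not a result about them. The lost pattern, a peak in B1, B2 and B3 and in neither C220 library, was found at 38 gained regions (6.76%, 95% Wilson interval 4.97 to 9.14, counting error only). It was found at 4.58% of all CLBL-1 regions, at 6.94% of the merged regions of 17-71 and at 146 (6.78%) of the other regions called in exactly 3 libraries, shares close to or below that of the gained regions. With the 20000 strongest peaks of every library the lost pattern was found at 1.89% of the 265 regions then gained, and the gained pattern at 2 of them. The share of all regions with either pattern was not counted in those shortened lists. These values thus cannot be read as above or below a background. B1 alone had a peak at 74 gained regions (13.2%), and a control but no C220 library at 167 (29.7%), against 6 (1.07%) with C220 but no control. In the same order the shares were 7.90%, 18.6% and 0.697% of all CLBL-1 regions and 11.9%, 26.6% and 1.30% of the other regions called in exactly 3 libraries, the latter close to those of the gained regions.

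The strongest of the 38 regions with opposite patterns in the lines, by the smallest −log10 p of their 17-71 control peaks, was chr16:46603380-46604941. Its fold enrichments were 3.38, 2.96 and 4.23 in C4, C5 and C6 and 4.19, 4.56 and 4.44 in B1, B2 and B3. Next came chr32:2414358-2415176, with 3.43, 3.89 and 4.30 in CLBL-1 and 6.17, 4.69 and 4.19 in 17-71. In both regions the fold enrichments of the lines overlapped, and their 17-71 peaks were strong by choice.

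At the 59 gained regions open in all 5 libraries of 17-71, −log10 p differed between the lines more than fold enrichment did. They were chosen for a peak in every 17-71 library and for none in the CLBL-1 controls. That choice by itself favours stronger peaks in 17-71, so the comparison of the lines is only a description of these regions. Their median −log10 p was 22.1 in B1, 14.2 in B2 and 14.4 in B3, and 7.37 and 9.75 in the C220 libraries B4 and B6, against 6.70, 6.33 and 6.29 in C4, C5 and C6. Their median fold enrichments, 4.99, 3.93, 4.02, 3.89 and 3.70 for B1 to B6 in that order and 3.43, 3.30 and 3.91 for C4 to C6, overlapped between the lines. At 17 of the 59, every 17-71 fold enrichment was above every C220 fold enrichment of CLBL-1. No such count was made for other regions, so nothing is concluded from it. At chr1:114079358-114080186 the 17-71 values were 7.62, 5.98, 6.15, 6.14 and 6.11 in B1, B2, B3, B4 and B6, and the CLBL-1 values were 4.03, 3.99 and 4.96. Control and C220 libraries of 17-71 overlapped there.

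A 17-71 peak was somewhat more frequent at the stronger gained regions. Any 17-71 library had a peak at 60.1% of the 188 gained regions of largest smallest −log10 p in CLBL-1, at 57.8% of the next 187 and at 49.2% of the 187 weakest. In B2 the shares were 38.8%, 37.4% and 23.0%, while in B4 they were 15.4%, 17.6% and 13.9% and showed no such order. Other regions were not split by strength, so this order is not read as particular to the gained regions.

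The number and share of gained regions differed between chromosomes. Chromosome 9 held 49 of them among its 1571 regions, or 3.12% (95% Wilson interval 2.37 to 4.10, counting error only) against 1.73% of all regions, and thus 8.72% of the gained regions beside 4.82% of all regions. It held 3 lost regions. Chromosome 36 followed with 2.85%, chromosome 24 with 2.79% and chromosome 38 with 2.68%, on fewer regions. The lowest shares were those of chromosome 11, with 4 of 1064 (0.376%), chromosome 29 (0.519%) and the X chromosome, with 6 of 901 (0.666%). Chromosome 9 was singled out after the shares of all chromosomes were seen, and its share is a description. With a library left out, its share lay between 3.97% without C5 (2.71% of all regions) and 8.43% without C6 (4.91%). Without C3 it was 5.46% beside 4.03% of all regions.

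**Figure D5:**
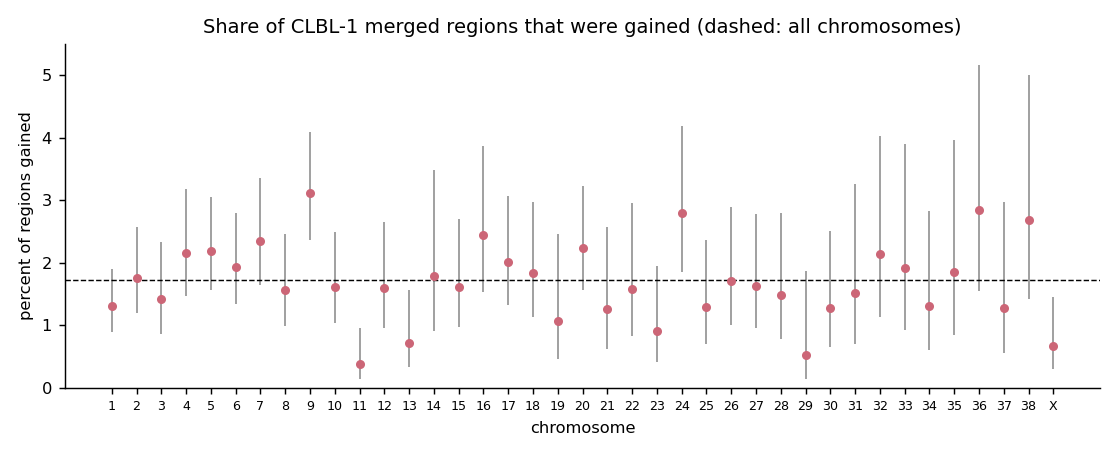
Percent of each chromosome's CLBL-1 regions that were gained (vertical axis, with 95% Wilson intervals that cover counting error only) by chromosome (horizontal axis), with the 1.73% of all regions as a dashed line. Chromosome 9 has the highest share (3.12%) and chromosome 11 the lowest (0.376%). Both were singled out after the shares of all chromosomes were seen, and the intervals are not tests.

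The 49 regions of chromosome 9 reached from base 329386 to base 60695420 and were as weak as the rest, with a median smallest −log10 p of 5.65. Their median fold enrichments were 3.37, 3.18 and 3.60 in C4, C5 and C6, slightly below the 3.43, 3.27 and 3.77 of the gained regions elsewhere. By description only, since the same calls chose the regions and the gained regions are counted in the C220 lists, chromosome 9 held 4.98%, 5.07% and 5.12% of all peaks in C4, C5 and C6, and 4.77% and 4.61% in C2 and C3. With the peaks of gained regions left out, it held 4.90%, 5.00% and 5.03% in C4, C5 and C6. In 17-71 it held 3.97%, 3.42% and 3.84% of peaks in the controls and 3.64% and 3.58% with C220, where the groups overlapped (3.74% ± 0.288, n = 3, and 3.61% ± 0.0425, n = 2, SD; exact permutation p = 0.6). Chromosome 11, at the other end, held 3.44% and 3.39% of peaks in C2 and C3 and 3.30%, 3.17% and 3.26% in C4, C5 and C6. In every CLBL-1 library the fold enrichment of peaks with a −log10 p between 5 and 6 was a little lower on chromosome 9 than elsewhere, 3.46 against 3.60 in C2 and 3.15 against 3.29 in C4, for example, and the part of this in the number of gained regions was not tested.

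The gene annotation used here covered only part of the regions, and how many gained regions lie near genes was not analysed here. The study's own annotation placed one upstream of CDT1, a factor that licenses origins of DNA replication, one inside LSM7, a subunit of the ring of LSm proteins that binds U6 RNA in splicing and takes part in mRNA decay, and one inside MBD3, a subunit of the chromatin remodelling and deacetylase complex NuRD. They are named because that annotation, as far as it was used here, gave them a symbol, while 3 further gained regions were paired with a gene identifier that has no symbol there. Of the 17 gained regions with an entry in the part used here, the other 11 had no gene. The annotation covers mostly regions ranked high by a test on the same libraries, so that the choice of these regions is not independent of the data. The region near CDT1, chr5:64572996-64574540, had low fold enrichments of 2.59, 2.00 and 2.38 in C4, C5 and C6 and no peak in 17-71. The region in LSM7, chr20:56730943-56731717, had 3.38, 2.81 and 3.19 and no peak in 17-71 either. The region in MBD3, chr20:57296970-57298551, had 3.59, 3.0 and 3.60, and in 17-71 a peak in B1 with 3.67. In the dog assembly UU_Cfam_GSD_1.0 of RefSeq, CDT1 lies between APRT and PIEZO1, LSM7 between SPPL2B and LINGO3, and MBD3 between UQCR11 and MEX3D. All 3 regions were below 3.59, the higher control level at the threshold, in at least C5. Their smallest −log10 p was that of C6, with 5.80, 5.18 and 5.74, and by this measure they belonged to the weak majority of the list. In C4 and C5 the values were larger, 11.6 and 12.9 near CDT1, 9.36 and 6.27 in LSM7, and 9.22 and 6.45 in MBD3.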

How the data were processed

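ATAC-seq peak lists of 10 libraries were used. According to the study's methods and the labels, the authors mapped paired reads to CanFam3.1 using Bowtie2 2.2.4 and ran MACS2 in its broad mode on every library by itself, without pooling. Outlier samples had been removed before deposit. Not given in the sources used here were the MACS2 version and any removal of duplicate reads. The deposited lists give a position, a fold enrichment (a ratio to local background) and a −log10 p per peak, not scaled between libraries; the −log10 q and the score columns were not used. The lists carry no read counts, so depth and the precision it gives are unknown.

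Touching or overlapping peaks were merged, and 1 bp of overlap was enough for a library to have a peak in a region. The strongest peak gave the region's value. Coordinates are 1-based. Shares of 17-71 libraries were compared by two-sided exact permutation over the 10 splits of its 5 libraries. Regions were named by fixed rules: the 10 of largest smallest −log10 p, and the 3 just inside and just outside the list. The strongest regions with opposite or shared patterns in 17-71, chromosomes 9 and 11 and the annotated genes were chosen after values were seen. The regions and rules as a whole were chosen with earlier results of these data known. Alternatives used stricter thresholds, lists of 20000 peaks, other overlap rules and each library left out. The merging and the rule for gained regions were tested on simulated peak lists and checked against bedtools 2.31.1. The simulated lists had no peaks missed near a threshold, so they tested the code and not the weak calls. Base sequence and gene starts were not analysed here. Calculations used scipy 1.17.1, pandas 2.3.3 and numpy 2.4.6 in Python 3.11.15, and figures matplotlib 3.10.9.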

Additional observations from a re-analysis of the deposited data

How the results depend on the processing

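The number of gained regions, 562, was 473 with peaks of a −log10 p of at least 7, 436 with a fold enrichment of at least 3 and 645 where a peak had to cover 50% of a region, and stayed at 562 with peaks up to 200 bp apart merged or with no control peak allowed within 500 bp. With the 20000 strongest peaks of each library it fell to 265, beside 284 lost regions; the cause was not tested. A similar number did not mean the same regions. Of the 562, 52 (9.25%) were among the 473 regions at a −log10 p of at least 7 (11% of these), 398 (70.8%) among the 436 at a fold enrichment of at least 3 (91.3%) and 77 (13.7%) among the 265 of equal lists (29.1%). Leaving out each library in turn gave between 829 and 1572 gained regions, 1461 without C2, 1287 without C3 and 1572 without C6, since fewer libraries had to carry or lack a peak.

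The difference between C220 and control in the 17-71 share at gained regions kept its direction under every alternative run. In percentage points it lay between −23.7 and −13.4 with each library left out, at −17.9, −16.2 and −15.9 with the stricter −log10 p, the stricter fold enrichment and the 50% cover, and at −2.20 with the 20000 strongest peaks of every library (exact permutation p = 0.5). Relative to all CLBL-1 regions, the log2 difference lay between −0.75 and −0.46 with each library left out and was −0.10 with the 20000 strongest peaks (exact permutation p = 0.5). Relative to the other regions called in exactly 3 libraries, chosen after the data were seen, it was −0.29 (exact permutation p = 0.1). No exact test here could go below 0.1, so these p-values say nothing about stability.

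The share of chromosome 9 regions that were gained, 3.12%, beside 1.73% of all regions, was 2.10% with a fold enrichment of at least 3 (all regions 1.41%) and 2.15% with the 20000 strongest peaks (1.04%). It was 7.06% without C2 (4.58%), 5.46% without C3 (4.03%) and 8.43% without C6 (4.91%), and above the share of all regions in each of these. The share of gained regions with the lost pattern in 17-71, 6.76%, was 1.89% with the 20000 strongest peaks, 4.59% with a fold enrichment of at least 3 and 4.81% with the 50% cover. The gained pattern in 17-71, found at 0 of the 562, was found at 2 of 265 gained regions with the 20000 strongest peaks. It was found at 2 of 1461 without C2 and at 1 of 436 with a fold enrichment of at least 3. The share without any 17-71 peak, 44.3%, was 64.5%, 52.4% and 53.6% with the 20000 strongest peaks, the stricter −log10 p and the 50% cover, and 39.5% without C2. For these 17-71 patterns the share of all regions was not counted under the alternatives. Their values there have no background beside them and are not read as a change particular to gained regions. No paired analysis was possible because the control and C220 libraries of a line share no replicate number. The planned comparisons of GC content and of gene starts were not run, since a genome and an annotation of the build were not used here.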
